A study of Mus musculus with 24 samples.

Results

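Retinoic acid is made, removed and read out by a small group of genes, and 10 of them were followed through the maturation of mouse retinal organoids (MROs). They were the 3 retinaldehyde dehydrogenases Aldh1a1, Aldh1a2 and Aldh1a3, the 3 retinoic acid hydroxylases Cyp26a1, Cyp26b1 and Cyp26c1, the 3 nuclear receptors Rara, Rarb and Rarg, and the carrier protein gene Crabp1. Each was taken by its symbol from the 46603 annotated genes of the count tables, and all 10 were found. The libraries came from 24 individual MROs, with 6 per timepoint at D20, D22, D25 and D30 of differentiation, all from 1 independent experiment. All were control organoids grown from the mouse embryonic stem cell line E14Tg2a, taken here as wildtype. The study's methods describe no genetic change made to these organoids. Apart from the supplements of the culture protocol, they had received only the solvent water. The titles of the D20 libraries lack the word Ctrl that those of D22, D25 and D30 carry, and this difference coincides with the timepoint. In every group the culture had passed through an earlier window with the synthetic retinoid EC23, as the study's methods state, so no timepoint represents tissue that never met an added retinoid. Each library holds the RNA of 1 whole organoid, so fewer cells of a type and less RNA per cell cannot be told apart.

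Retinol that enters a cell is oxidised to retinaldehyde, and the Aldh1a enzymes complete the step to retinoic acid. Retinoic acid binds the Rar receptors, which sit on DNA as pairs with Rxr receptors, and the Cyp26 enzymes hydroxylate it for removal. In the embryonic retina of the mouse, Aldh1a1 is known from the dorsal and Aldh1a3 from the ventral side, and Cyp26 enzymes from a band between them. Rarb and Cyp26a1 are textbook examples of genes that retinoic acid itself switches on through paired receptor binding sites near their start.

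The libraries held 13634846 to 19477108 reads that fell on a feature. Of the 10 genes, 8 passed the filter of a mean of 10 normalized counts over the 24 libraries, and Aldh1a2 and Cyp26c1 did not. Levels are given as normalized CPM, the CPM unit of reads relative to a library size scaled by trimmed means (TMM), and changes as log2 fold changes with their standard error (SE) from edgeR's quasi-likelihood test, with the Benjamini-Hochberg adjustment over all 46949 features tested and a threshold of 0.01. Photoreceptor genes were read in every organoid, with the summed normalized CPM of 6 of them between 1512 and 3038. From D20 to D30, 2 of these 6 rose and 2 fell. Cerebral cortex genes were read too: the sum of 6 of them ran from 3.31 (D22 organoid 3) to 275 (D25 organoid 1). Of these 6 cortex genes 1 rose from D20 to D30 and none fell. Composition moved with time as well. From D20 to D30, 7 of 7 progenitor genes fell (mean sum 1282 to 350 normalized CPM), 5 of 5 ganglion cell genes fell (101.5 to 8.36), 5 of 6 Müller glia genes rose (489 to 2461) and 6 of 7 genes of mesenchyme and meninges rose (17.8 to 172). Of 6 amacrine cell genes 1 rose and 1 fell, and their mean sum went from 649.8 to 324. Over this interval 26.8% of all tested features and 41.8% of tested annotated genes were called in either direction. Of 6 pigment epithelium genes 4 were tested and 2 rose, Mitf and Ttr, and the mean sum went from 21.3 to 1018 with D30 organoids 2 (2673) and 6 (2487) far above the D30 median of 394.9. Most of the D30 sum was Ttr (mean 987 normalized CPM), a gene of the choroid plexus as well, and the defining gene Rpe65 had 14 counts over the 24 libraries. The part of these shifts in the results that follow was not tested.

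From D20 to D30, 5 of the 10 genes fell and none rose. The hydroxylase genes Cyp26b1 and Cyp26a1 fell most, followed by the carrier gene Crabp1 and the receptor genes Rarb and Rara. Aldh1a1, the main dehydrogenase gene of these organoids, passed the test in no comparison. Among all tested features, 13.0% were called lower and 13.9% higher over the same interval, and the median log2 fold change was -1.14 over the 8 tested genes against -0.04 over all tested features. Annotated genes were called more often than all features. Of the 16253 tested, 2712 were lower and 4078 higher, that is 41.8% in either direction against 62.5% of the 8 genes. Their median log2 fold change was 0.10. The joint test of the 4 timepoints called the same 5 genes, and 27.2% of all features.

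**Figure D1:**
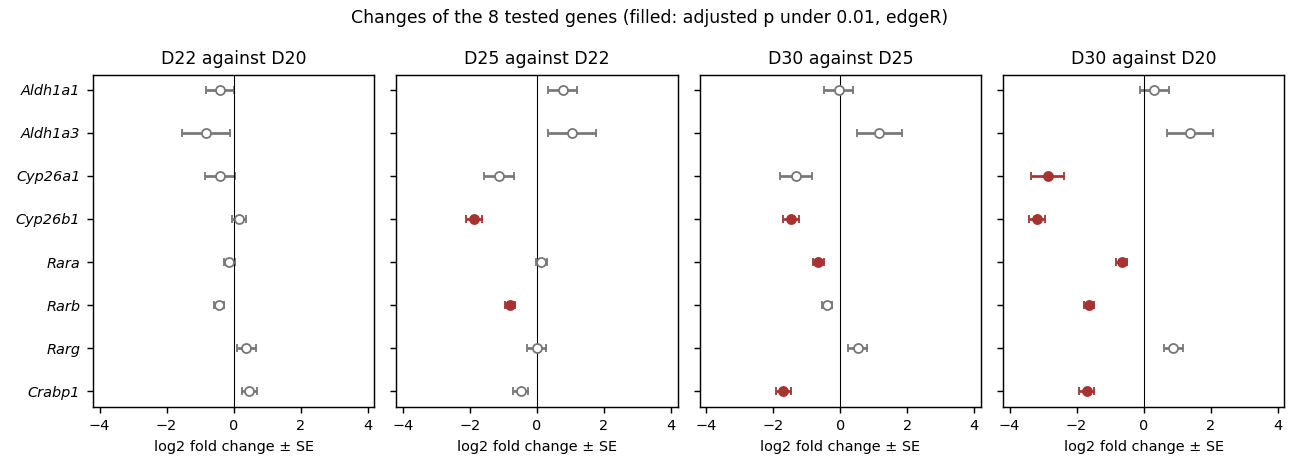
Log2 fold changes (x axis, with SE as bars) of the 8 tested genes (rows) in 4 comparisons of timepoints, with 6 organoids per timepoint; filled points passed an adjusted p of 0.01. No gene is filled for D22 against D20, 2 are for D25 against D22, 3 for D30 against D25 and 5 for D30 against D20, and every filled point lies left of 0.

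Taken step by step, none of the 8 genes passed for D22 against D20 with edgeR, and none with DESeq2 (background 1.62% of features higher and 0.285% lower). Rarb (unadjusted p = 0.00684) and Crabp1 (unadjusted p = 0.0431) were the 2 genes under an unadjusted p of 0.05 in edgeR's test. For D25 against D22, 2 genes fell, Cyp26b1 and Rarb, where 2.19% of all features were lower and 3.08% higher. Of the tested annotated genes, 10.2% were called in either direction at this step. For D30 against D25, 3 genes fell, Cyp26b1, Crabp1 and Rara, where 1.75% of all features were lower and 1.76% higher. Here 7.38% of the tested annotated genes were called in either direction.

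Cyp26b1 (ENSMUSG00000063415, chr6:84571414-84593908, minus strand, GRCm38) was the most abundant of the hydroxylase genes. At D20 its normalized CPM ran from 130.1 to 158.9 with a median of 151.6, and at D22 from 121.9 to 220.3 with a median of 158.2. At D25 the 6 organoids lay between 27.1 and 64.1 (median 44.5), and at D30 between 6.60 and 26.2 (median 17.6). The organoids of D25 were thus all below those of D22, and those of D30 all below those of D25. Cyp26b1 fell by 1.88 ± 0.23 (SE) on the log2 scale from D22 to D25 (edgeR adjusted p = 3.30e-06) and by 1.47 ± 0.23 from D25 to D30 (adjusted p = 7.59e-05). Over the whole interval from D20 to D30 the fold was 0.110, a fall by 3.19 ± 0.24 on the log2 scale (adjusted p = 8.0e-12). The 6 organoids of D20 were close to each other, with a coefficient of variation of 7.09%, against 47.3% at D30.

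Cyp26a1 (ENSMUSG00000024987, chr19:37697798-37701536, plus strand) started lower and fell with more scatter. Its normalized CPM was 9.50 to 26.7 at D20 (median 14.7), 4.86 to 20.4 at D22 (median 10.9), 3.01 to 9.81 at D25 (median 5.53) and 0.261 to 6.93 at D30 (median 1.01). All D30 organoids were below all D20 organoids, while neighbouring timepoints overlapped. From D20 to D30, Cyp26a1 fell by 2.87 ± 0.48 (log2; edgeR adjusted p = 1.78e-05), and neither D25 against D22 (-1.13, adjusted p = 0.104) nor D30 against D25 (-1.33, adjusted p = 0.0957) passed. The highest D30 organoid, number 6, stood at 6.93 normalized CPM with the next at 3.17. Without it, the change from D25 to D30 was -2.16 and passed (adjusted p = 0.00158), and the change from D20 to D30 was -3.70. Organoid 6 also had the second highest sum of the pigment epithelium list (2487 normalized CPM over 6 genes, a sum that was mostly Ttr at D30), the highest ganglion cell sum (11.1 over 5 genes, D30 median 8.80) and the lowest Müller glia sum (1152 over 6 genes, D30 median 2362) of its timepoint, and their part in its Cyp26a1 level was not tested.

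Cyp26c1 (ENSMUSG00000062432, chr19:37685581-37693398, plus strand), the neighbour of Cyp26a1 on the chromosome, was hardly read. It had 12 counts over the 24 libraries and at most 3 in any of them, and 16 libraries had none. A library with a count of 0 allows up to 3 counts, which is at most 0.220 CPM at this depth and covers counting error only. Changes of Cyp26c1 were therefore not detectable at this depth.

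Retinoic acid receptors are known to bind paired half-sites, and the promoter sequences are shown for the genes that hold such a pair next to their start. A direct repeat of the receptor half-site was searched in the RefSeq promoter windows (GRCm38.p6, 250 bases before to 50 bases after each start). The half-sites were the consensus AGGTCA as well as its relatives AGTTCA, then also GGGTCA, and finally GGTTCA, any 2 of them in the same direction with 1, 2 or 5 bases between, on both strands. Of the 32851 windows, 32 held a repeat with 5 bases between (0.097%), 88 one with 2 bases (0.268%) and 73 one with 1 base (0.222%). RefSeq windows were at hand for 9 of the 10 genes, 14 windows in all, and not for Aldh1a3. Rarb and Cyp26a1 were the 2 genes whose windows held a repeat, in both cases with 5 bases between. Neither repeat holds the consensus half-site, so both matches rest on its relatives. Since both genes were known beforehand for such sites, the matches are no test against the shares of windows. The repeats are given here read in the direction of the half-sites, which are in capitals:
Rarb: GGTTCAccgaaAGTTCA
Cyp26a1: AGTTCAcccaaAGTTCA
In Rarb the repeat lies on the strand of the gene, at chr14:16575513-16575529, from base -53 to base -37 counted from the RefSeq start. It is inside an annotated exon of longer Rarb transcripts, and with 6 bases on either side it reads as follows:
Rarb promoter site: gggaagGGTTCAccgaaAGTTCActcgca
In Cyp26a1 the repeat lies on the other strand, at chr19:37697776-37697792, from base -32 to base -16 counted from the RefSeq start. The annotated GENCODE start, up to which the stretch below is printed, lies before the RefSeq start. The 110 bases up to the annotated start (chr19:37697688-37697797, plus strand) are given on the gene's strand, where the half-sites, again in capitals, appear as their reverse complement:
Cyp26a1 promoter: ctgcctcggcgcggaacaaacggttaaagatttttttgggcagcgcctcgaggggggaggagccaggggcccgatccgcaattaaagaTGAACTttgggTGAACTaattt
Cyp26b1, Crabp1 and Rara, which fell too, had no such repeat in their windows. A match in letters is a description of the sequence and not a measurement of binding.

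Aldh1a1 (ENSMUSG00000053279, chr19:20492715-20643465, plus strand) supplied nearly all dehydrogenase reads and varied widely between organoids of the same age. At D20 its normalized CPM was 46.4 to 374 (median 203), and at D22 it was 53.3 to 253 (median 158). At D25 the range was 59.1 to 653 (median 207), and at D30 it was 68.7 to 395 (median 256). The timepoints overlapped throughout, and the lowest and highest organoid of a timepoint differed more than any 2 timepoint means. The change from D20 to D30 was 0.31 ± 0.43 on the log2 scale (edgeR adjusted p = 0.605), and no step passed. The SE leaves room for a change of either sign, so this does not show a constant level. The residual variation of Aldh1a1 between organoids was a biological coefficient of variation of 0.511, against 0.177 for features of its abundance.

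**Figure D2:**
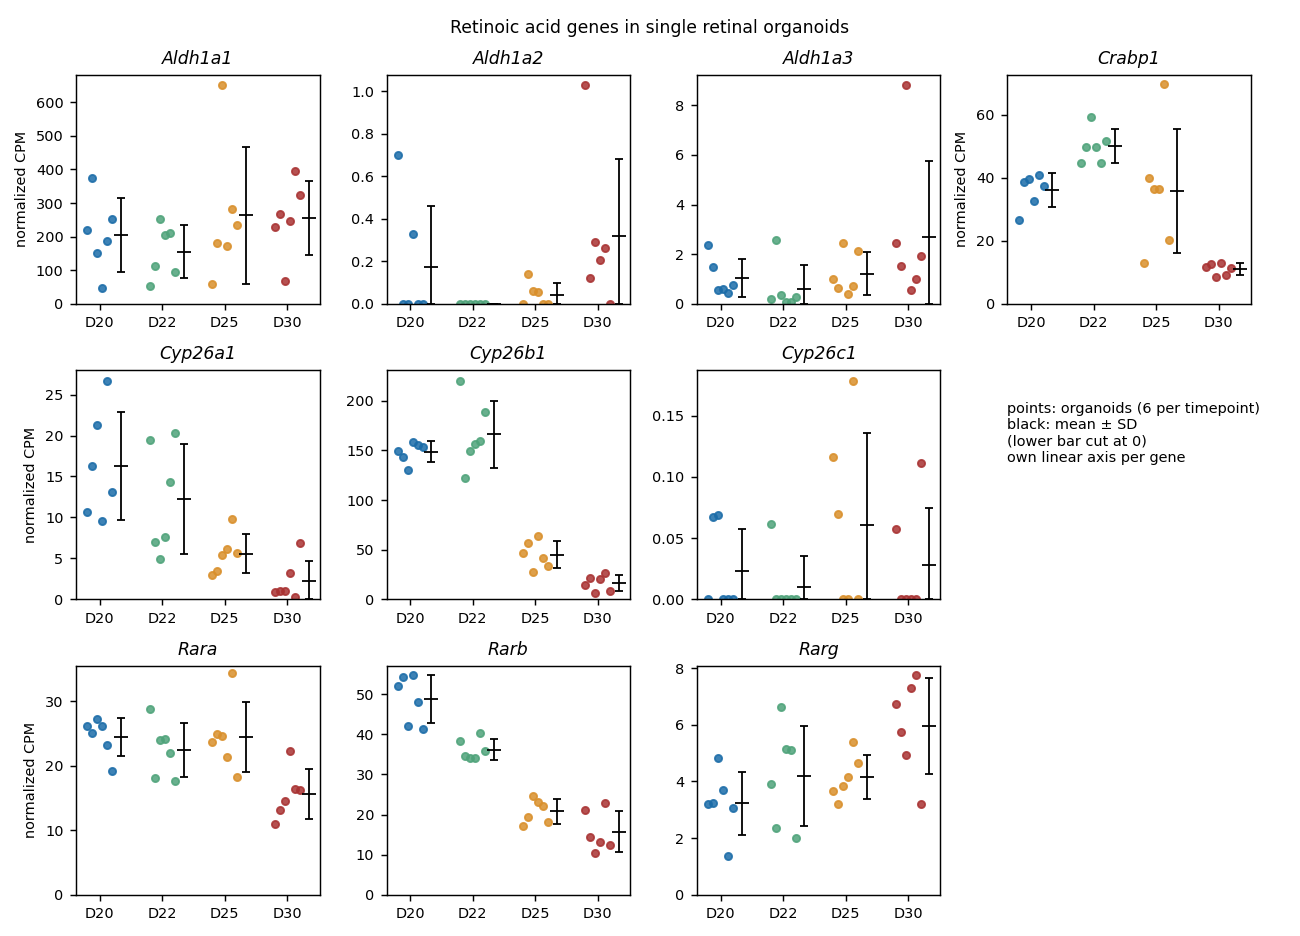
Normalized CPM (y axis, linear, a separate scale for each gene) of the 10 genes in each of 24 organoids by timepoint (x axis); coloured points are organoids, 6 per timepoint, and black marks are mean ± SD. Cyp26b1 lies between 121.9 and 220.3 at D20 and D22 and at or below 26.2 at D30, whereas the Aldh1a1 points of all timepoints overlap.

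Aldh1a3 (ENSMUSG00000015134, chr7:66390890-66427517, minus strand) was low and led by single organoids. Its median was 0.681 normalized CPM at D20, then 0.225 at D22, and was 0.849 at D25 and 1.74 at D30. At D22 organoid 2 had 2.58 (37 counts) and the other 5 had 0.068 to 0.338. At D30 organoid 3 had 8.80 (152 counts) and the other 5 had 0.550 to 2.46. Aldh1a3 passed in no comparison (D30 against D20 1.39 ± 0.68, edgeR adjusted p = 0.109), and without D30 organoid 3 that change was 0.53. Without D22 organoid 2, the step from D20 to D22 was -2.42 (adjusted p = 0.0605) and the joint test of the 4 timepoints passed (adjusted p = 0.000769, against 0.0577 with all organoids).

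Aldh1a2 (ENSMUSG00000013584, chr9:71215789-71296243, plus strand), the dehydrogenase of many mesodermal tissues, had 51 counts in all. It had no count in any D22 organoid, at most 10 counts in a D20 organoid and at most 2 in a D25 organoid. At D30 a single organoid, number 1, held 18 of the 32 counts (1.03 normalized CPM). Between timepoints no difference was detectable at this depth. Beside this, organoid 1 of D30 had the highest lens sum (7.54 normalized CPM over 5 genes, against a D30 median of 0.533) and the second highest sum of mesenchyme and meninges (259.9 over 7 genes, D30 range 67.3 to 297.7), and their part in the Aldh1a2 counts was not tested.

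Rarb (ENSMUSG00000017491, chr14:16430839-16819156, minus strand) had a lower median at each later timepoint. Its normalized CPM was 41.2 to 54.9 at D20 (median 50.02), 34.05 to 40.2 at D22 (median 35.2), 17.0 to 24.7 at D25 (median 20.8) and 10.4 to 22.9 at D30 (median 13.7). Each timepoint up to D25 lay wholly below the one before, and D30 overlapped D25. Rarb fell by 0.80 ± 0.15 on the log2 scale from D22 to D25 (edgeR adjusted p = 0.000591), and its change from D20 to D30 was -1.64 ± 0.15 (adjusted p = 5.67e-10, fold 0.322). The change from D20 to D22 was -0.43 ± 0.15 (adjusted p = 0.0928) and that from D25 to D30 was -0.40 ± 0.15 (adjusted p = 0.117). Rarb shares 1793 exon bases with Top2b, which runs on the opposite strand. Whether the counting used the strand is not given in the sources used here, and without it their reads could not be told apart. The mean level of Top2b, a topoisomerase gene, was 794 normalized CPM at D20, then 891 at D22, 812 at D25, and 716 by D30.

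Rara (ENSMUSG00000037992, chr11:98927818-98974942, plus strand) had similar medians up to D25 and a lower median at D30. The medians were 25.6 normalized CPM at D20 (range 19.1 to 27.2), 23.0 at D22 (17.7 to 28.8), 24.1 at D25 (18.2 to 34.3) and 15.4 at D30 (11.0 to 22.2). At D30, 5 of 6 organoids were below every D20 organoid. From D20 to D30, Rara fell by 0.65 ± 0.16 (log2; edgeR adjusted p = 0.00155), and the fall was called under all 7 other settings and without any single organoid. The fall by 0.66 from D25 to D30 (adjusted p = 0.00867) was less firm. It missed the threshold under 3 of 7 other settings and in 16 of 24 fits without 1 organoid, with an adjusted p of up to 0.0410 without D25 organoid 5.

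Rarg (ENSMUSG00000001288, chr15:102234938-102257517, minus strand) was the scarcest receptor gene per length at every timepoint. Its median was 3.22 normalized CPM at D20 (range 1.35 to 4.82), 4.51 at D22 (1.996 to 6.62), 3.999 at D25 (3.21 to 5.41) and 6.24 at D30 (3.21 to 7.77), with 5 of 6 D30 organoids above every D20 organoid. The difference of 0.88 ± 0.28 between D30 and D20 did not pass (edgeR adjusted p = 0.0145). It did pass with DESeq2's test (0.95, adjusted p = 0.00362), with DESeq2's size factors in edgeR (adjusted p = 0.00899), and without D20 organoid 3, D22 organoid 6 or D30 organoid 6 (adjusted p of 0.00765, 0.00995 and 0.00519).

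Crabp1 (ENSMUSG00000032291, chr9:54764748-54773110, plus strand) encodes a cytosolic protein that holds retinoic acid in the cell. Its normalized CPM was 26.6 to 41.0 at D20 (median 38.0) and 44.7 to 59.3 at D22 (median 49.8), so that all D22 organoids were above all D20 organoids, though the step did not pass (0.47 ± 0.22, edgeR adjusted p = 0.259). At D30 it was 8.46 to 13.1 (median 11.5), below every organoid of D20. Crabp1 fell by 1.70 ± 0.23 on the log2 scale from D25 to D30 (adjusted p = 1.09e-05) and by 1.71 ± 0.23 from D20 to D30 (adjusted p = 7.22e-07).

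The D25 organoids did not share one Crabp1 level. Organoid 1 had 12.8 normalized CPM, organoid 6 had 20.2, organoids 2, 3 and 4 had 39.8, 36.5 and 36.3, and organoid 5 had 69.8. Organoid 1 was inside the D30 range, and organoid 5 above every D22 organoid. The difference between D25 and D22 was -0.48 ± 0.22 (edgeR adjusted p = 0.181), and -0.78 without organoid 5 (adjusted p = 0.00945). The summed level of 6 amacrine cell genes, none of them at 0, was highest in the same organoid 5 (789 normalized CPM) and lowest in organoid 1 (367, D25 median 577), and organoid 1 also had the highest sum of 6 cerebral cortex genes (275, D25 median 93.7). At D25 most of the cortex sum was Neurod6 (mean 76.0 of 109.9 normalized CPM), a gene the study describes in postmitotic amacrine cells. The part of these sums in the Crabp1 levels was not tested. The amacrine sums ranged from 560 to 704 at D20, 658 to 773 at D22, 367 to 789 at D25 and 223 to 365 at D30.

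To set the genes beside each other, levels were divided by the length of the merged exons. At D20 the order of the mean CPM per kb was Crabp1 (44.9 ± 6.77, SD, n = 6), Aldh1a1 (41.5 ± 22.1), Cyp26b1 (27.7 ± 1.97), Rarb (9.26 ± 1.14), Cyp26a1 (8.21 ± 3.35), Rara (5.61 ± 0.678), Rarg (0.758 ± 0.263) and Aldh1a3 (0.224 ± 0.164). Crabp1 and Aldh1a1 at the top, and Rarb and Cyp26a1 below them, were closer than their spread. At D30 the order was Aldh1a1 (51.6 ± 22.1), Crabp1 (13.8 ± 2.33), Rara (3.57 ± 0.882), Cyp26b1 (3.05 ± 1.44), Rarb (2.98 ± 0.965), Rarg (1.40 ± 0.397), Cyp26a1 (1.11 ± 1.27) and Aldh1a3 (0.587 ± 0.663). Rara, Cyp26b1 and Rarb did not differ beyond their spread at D30, and neither did Rarg, Cyp26a1 and Aldh1a3. Aldh1a2 and Cyp26c1 were at or under 0.140 CPM per kb on average at every timepoint.

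The balance of the 2 enzyme families followed from these levels. The summed CPM per kb of the Aldh1a genes over that of the Cyp26 genes was 0.281 to 2.18 at D20 (median 1.12) and 0.213 to 1.69 at D22 (median 1.01). It was 1.17 to 17.1 at D25 (median 3.71) and 9.22 to 16.0 at D30 (median 12.4), so that D30 did not overlap D20 or D22. Its spread was widest at D25, where organoid 3 had 17.1 and organoid 1 had 1.17. Organoid 3 of D25, which also held the highest Aldh1a1 level of the series (653 normalized CPM), had the highest progenitor sum (880.5 normalized CPM over 7 genes, D25 median 507) and the highest Müller glia sum (1021 over 6 genes, median 794) of its timepoint, and their part in its ratio was not tested. Aldh1a1 made up at least 87.2% of the Aldh1a sum in every organoid. These ratios compare transcripts and say nothing about enzyme activity or retinoic acid itself, which was not measured here.

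Within the receptors, the shares of the summed CPM per kb shifted as well. At D20 Rarb held 59.3% ± 3.62 (SD, n = 6), which became 53.3% ± 5.27 at D22, 37.7% ± 4.44 at D25, and 37.3% ± 8.44 by D30. Rara held 35.9% ± 2.47, 39.3% ± 3.59, 53.0% ± 4.94 and 45.4% ± 9.82 at the same timepoints. Rarg went from 4.86% ± 1.69 at D20 to 17.4% ± 3.15 at D30, and its lowest share at D30 (11.1%) was above its highest at D20 (7.35%). Shares of a sum are tied to each other, so a fall of Rarb raises the shares of the other 2 genes.

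**Figure D3:**
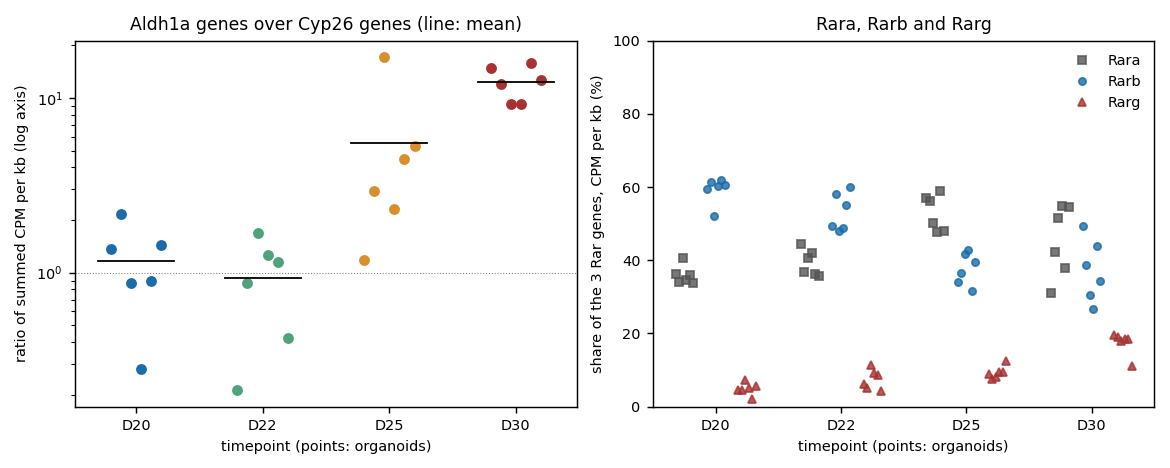
Left, ratio of the summed CPM per kb of the 3 Aldh1a genes over the 3 Cyp26 genes (y axis, log scale) in each organoid by timepoint, with the mean as a line; right, percent of the summed CPM per kb of the 3 Rar genes held by Rara, Rarb and Rarg. The ratio was 0.281 to 2.18 at D20 and 9.22 to 16.0 at D30, and the Rarb points start above and end overlapping the Rara points.

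Since Aldh1a1 and Aldh1a3 are known from opposite sides of the retina, their levels were set beside genes of the dorsal and the ventral retina in each organoid. Tbx5 encodes a transcription factor of the dorsal retina, Efnb2 a dorsal guidance ligand, and Vax2 a transcription factor of the ventral retina. At D30 organoid 3 had the lowest Aldh1a1 level (68.7 normalized CPM, against 229 to 395 in the other 5), no Tbx5 count (1.65 to 3.72 in the others), the lowest Efnb2 (44.2, others 88.5 to 114), and the highest Vax2 (8.05, others 0.131 to 3.03). The same organoid held the highest Aldh1a3 level of the series (8.80) and the lowest Cyp26b1 (6.60). At D20 organoid 4 had the lowest Aldh1a1 (46.4), the lowest Tbx5 (2.31) and Efnb2 (173) and the highest Vax2 (7.19), with Aldh1a3 at 0.594. At D22 organoid 2, with the highest Aldh1a3, had the lowest Tbx5 (3.001) and Efnb2 (133) and the highest Vax2 (3.70), while its Aldh1a1 level (111) was the fourth of 6. The other 2 timepoints did not show this for Aldh1a3. At D20 its highest level was in organoid 1 (2.38), which had the highest Efnb2 (317) and the highest sum of the 6 dorsal genes (440.7), and at D25 it was in organoid 3 (2.44), which had the highest Aldh1a1. The highest Aldh1a3 thus met the highest Vax2 and the lowest Tbx5 at 2 of 4 timepoints. The sum of the 5 ventral genes, which includes Vax2, was 72.3 in D30 organoid 3, the fifth of 6. Its level of the ventral gene Ephb3 (4.52) was the lowest of its timepoint, opposite to Vax2. D25 held no organoid that was at the extreme in all of these genes. In composition, D20 organoid 4 had the lowest progenitor sum of its timepoint (893.9 normalized CPM over 7 genes, D20 median 1343). D30 organoid 3 also had the lowest (292.2, D30 median 329.6), while D22 organoid 2 ranked 2 from the top of its timepoint (788.6). The part of the progenitor sums in these levels was not tested.

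**Figure D4:**
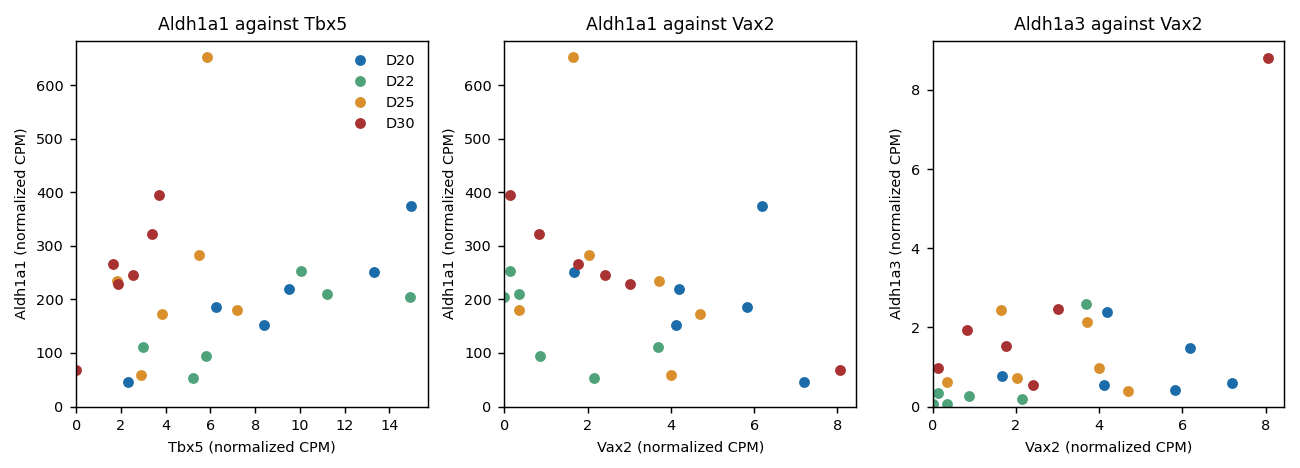
Normalized CPM of Aldh1a1 against Tbx5 (left), Aldh1a1 against Vax2 (middle) and Aldh1a3 against Vax2 (right), on linear axes; each point is 1 of 24 organoids, coloured by timepoint. Within a timepoint the Aldh1a1 points rise with Tbx5 (r of the deviations from 0.39 to 0.98), and Aldh1a3 goes with Vax2 less closely (r of the deviations 0.48 over all 24 organoids, -0.05 within D20 and 0.08 within D25), with D30 organoid 3 alone at 8.80 of Aldh1a3 and 8.05 of Vax2.

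The organoid with the lowest Aldh1a1 level was also that with the lowest Efnb2 at 3 of 4 timepoints, and that with the lowest Tbx5 and the highest Vax2 at 2 of 4. Over the 24 organoids, as deviations of log2 normalized CPM from the mean of each timepoint, Aldh1a1 went with Tbx5 (Pearson's r = 0.73, Spearman's rho = 0.77) and with Efnb2 (r = 0.73, rho = 0.62), and against Vax2 (r = -0.56, rho = -0.70). Without the 2 organoids farthest from the median of the second gene, r was 0.59, 0.71 and -0.54. Within single timepoints, with 6 organoids each, r of Aldh1a1 with Tbx5 ran from 0.39 at D25 to 0.98 at D30, and with Vax2 from -0.85 at D30 to -0.27 at D25. Aldh1a3 went against Cyp26b1 (r = -0.68, rho = -0.61, and r = -0.58 without 2 organoids), with r from -0.06 at D20 to -0.95 at D25. The other listed genes gave lower values with Aldh1a1, on the dorsal side Bmp4 (r = 0.43), Tbx2 (r = 0.41), Efnb1 (r = 0.18) and Tbx3 (r = 0.07), and on the ventral side Bmpr1b (r = -0.42), Ephb2 (r = -0.07) and Ephb3 (r = 0.11). Aldh1a3 and Vax2 gave r = 0.48 and rho = 0.31, with r = 0.40 without 2 organoids and r from -0.05 at D20 to 0.68 at D22. These are descriptions over organoids of 1 experiment, whose values share a library and its scaling.

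Of 6 dorsal genes, 5 fell from D20 to D30 (Tbx2, Tbx3, Tbx5, Efnb1 and Efnb2) and none rose. Of 4 tested ventral genes, 2 fell (Ephb2 and Ephb3) and none rose. Over this interval 2712 of the 16253 tested annotated genes were called lower, and 41.8% were called in either direction. The ventral count of 2 of 4 is near that 41.8%. The median log2 fold change was -1.50 over the dorsal and -0.85 over the ventral genes. It was -0.04 over all tested features and 0.10 over the tested annotated genes. The change was -2.06 ± 0.49 for Tbx5 (edgeR adjusted p = 0.00122) and -1.52 ± 0.19 for Efnb2 (adjusted p = 9.36e-08). It was -2.04 ± 0.18 for Tbx3, -1.49 ± 0.18 for Tbx2 and -0.90 ± 0.16 for Efnb1, and on the ventral side -1.18 ± 0.13 for Ephb2 and -0.86 ± 0.20 for Ephb3. Vax2 did not pass (-0.84 ± 0.65, adjusted p = 0.329), and neither did the dorsal signal gene Bmp4 (1.61 ± 0.58, adjusted p = 0.0290). Several of these genes are also known from progenitors, all 7 markers of which fell, and the part of that fall was not tested.

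Of 11 genes for retinol supply and for the conversion between retinol and retinaldehyde, 7 were tested, and from D20 to D30 2 rose and 2 fell, where 26.8% of all features and 41.8% of annotated genes were called in either direction. Rdh10, which oxidises retinol, rose by 0.70 ± 0.12 on the log2 scale (edgeR adjusted p = 1.52e-05), from a mean of 29.4 normalized CPM to 47.9. Dhrs3, which turns retinaldehyde back into retinol, rose by 1.12 ± 0.13 (adjusted p = 2.68e-08), from 35.9 to 78.1. Lrat, which stores retinol as esters, fell by 2.93 ± 0.33 (adjusted p = 2.19e-08), from 25.9 to 3.40, and Rbp4, the retinol carrier of blood plasma, fell by 2.05 ± 0.35 (adjusted p = 2.12e-05), from 7.61 to 1.83. Thus neither direction held for the list, whose median was -0.32. At D30 organoids 2 and 6, with the high sums of the pigment epithelium list given above, held the 2 highest levels of Lrat (5.75 and 5.27 normalized CPM, others 1.03 to 3.33) and of Rbp4 (2.32 and 3.71, others 0.326 to 1.79). Those sums were mostly Ttr, so the cell type behind them is not established, and its part was not tested.

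All 11 genes listed here for carriers, receptor partners and cofactors were tested, and 2 rose and 4 fell from D20 to D30, that is 54.5% against the 41.8% of annotated genes called. Crabp2, which brings retinoic acid to the nucleus, fell by 4.21 ± 0.29 on the log2 scale (edgeR adjusted p = 8.95e-13), from 124.3 to 220.7 normalized CPM at D20 (median 170.6) to 6.40 to 12.4 at D30 (median 9.11). At D22 it was at 31.5 to 121.9 and at D25 at 9.32 to 36.6, so that it was below its D20 range at every later timepoint. Crabp1 did not move with it at D22, when all 6 organoids had more Crabp1 than at D20. Among the receptor partners, Rxrg fell by 2.08 ± 0.23 (adjusted p = 1.33e-08) and Rxra rose by 0.49 ± 0.13 (adjusted p = 0.00249). The corepressor gene Ncor1 (-0.32 ± 0.07) fell, and of the coactivator genes Ncoa2 (0.55 ± 0.09) rose and Ncoa3 (-0.40 ± 0.10) fell.

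**Figure D5:**
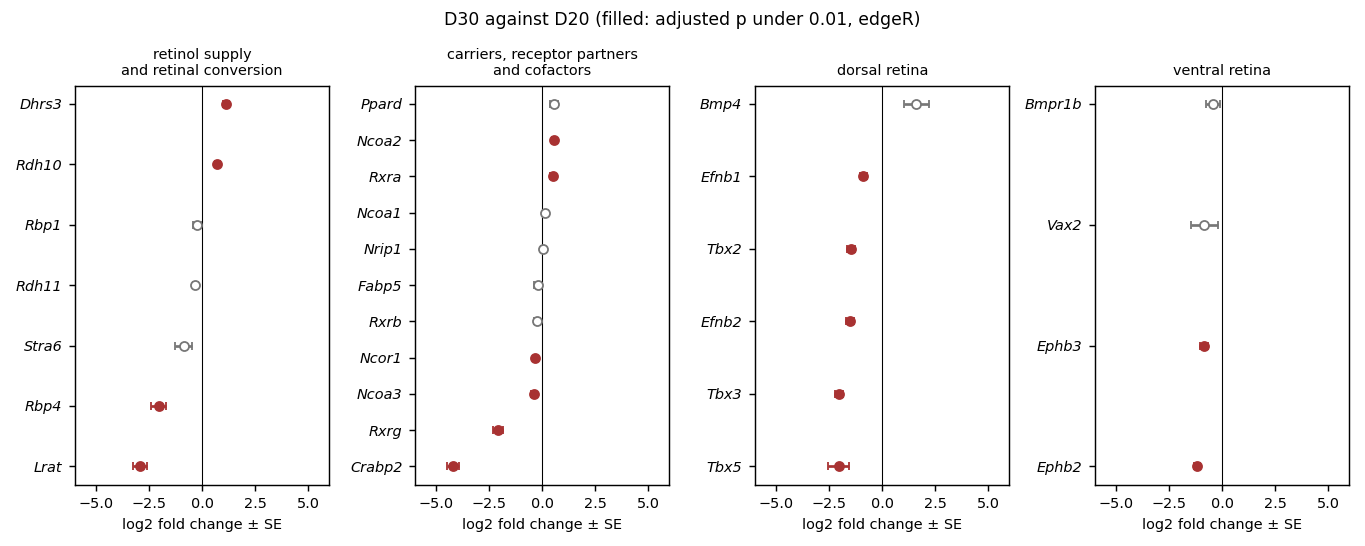
Log2 fold changes from D20 to D30 (x axis, with SE as bars) of the tested genes of 4 lists, from left to right retinol supply and retinal conversion, carriers with receptor partners and cofactors, dorsal retina and ventral retina; filled points passed an adjusted p of 0.01. Crabp2 (-4.21) and Lrat (-2.93) lie farthest to the left, and 5 of 6 dorsal genes are filled left of 0.

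Of 9 genes that retinoic acid is known to induce in other cells, 6 were tested, 1 rose (Dhrs3) and 1 fell (Crabp2) from D20 to D30, and the median was -0.12. The 33.3% called is near the 26.8% of all features and below the 41.8% of annotated genes. Hoxb1 and Cdx1 had no count in any organoid. Rarb and Cyp26a1, which are not on this list and carry the repeats printed above, both fell, and the difference between them and the list was not tested.

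Genes with a pattern like that of a member were looked for among 10853 annotated genes averaging 100 or more normalized counts, by Pearson's r of log2 normalized CPM over the 24 organoids. Closest to Cyp26b1 were Ccdc88c (r = 0.96), Bbx (r = 0.95) and Ezh2 (r = 0.94), and close to Rarb were Tfdp2 and Idh2 (each r = 0.95). Ezh2 encodes a histone methyltransferase. Closest to Cyp26a1 were Gm10419 (r = 0.90), Pou4f1 (r = 0.90), a ganglion cell factor, and Pde6c (r = 0.89), a cone phosphodiesterase gene that lies 431245 bases from Cyp26a1 on chromosome 19. Closest to Crabp1 were Frmd5, Mab21l2 and Rreb1 (each r = 0.93), and by deviations from the timepoint means Pax6 (r = 0.81, rho = 0.59). For Aldh1a1, which passed in no comparison, the closest gene was Itm2a both by level (r = 0.84) and by deviations from the timepoint means (r = 0.88). For Rara the closest was Iqsec1 (r = 0.84). Genes that share a course over 4 timepoints correlate for that alone, so these values are a description and carry no test.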

How the data were processed

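RNA of 24 individual organoids was sequenced by the study as strand-specific libraries free of ribosomal RNA. The deposited values are whole-number counts of reads per feature without normalization, which the authors made by trimming with cutadapt (version 1.5), aligning with HISAT2 to GRCm38/mm10, assembling with StringTie (version 1.3.3) and counting with HTSeq (version 0.6.1), in part per the submitters' processing notes. The tables list 126602 features, of which 46603 are annotated genes and 79999 are assembled loci, and their summary lines were left out. Reads without a feature were 37.7% to 49.2% of the reads counted on a feature or on none.

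Samples were grouped by the timepoint in their labels. The 46949 features whose base mean reached 10 were scaled with TMM and tested by edgeR 4.0.16 (R 4.3.3), in 1 fit of all 24 organoids without covariates. DESeq2 (version 1.42.0) was an alternative. Standard errors came from the test statistic. Since all organoids are of 1 experiment, p-values measure the spread between organoids of that experiment. No pair of libraries agreed within sampling noise (lowest chi-square per degree of freedom 5.14). The scripts were tested on simulated data. Depths of 13634846 to 19477108 reads put 3 counts at no more than 0.220 CPM. Coordinates and exon lengths are from GENCODE vM21, of the same build. Promoter windows are from RefSeq. The plots are from matplotlib 3.10.9 under Python 3.11.15.

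The genes, gene lists and the rule for named genes (all 10 genes, listed genes past 0.01 from D20 to D30 or at 0 counts, and the 3 genes most like each) were chosen with earlier results of these data known. Some genes that a list or the rule would include are left out and not reported here. Listed genes named outside that rule were Vax2, as the ventral counterpart of Tbx5, and the remaining dorsal and ventral genes with the markers Ttr, Mitf, Rpe65 and Neurod6, chosen after their values were seen.

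Alternatives were DESeq2 in place of edgeR, its size factors within edgeR, no filter, filterByExpr, annotated genes only, a replicate block, the compared timepoints only, and leaving out each organoid.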

Additional observations from a re-analysis of the deposited data

Results flagged for a closer look

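In each group of 6 organoids the lowest and the highest value of the 10 genes were compared with the nearest of the others by Dixon's criterion. Among the 39 groups with any spread, 4 stood out. A chance rate of about 1 in 20 groups holds for normally distributed values only. These were untransformed levels, some of them from few counts, so that rate does not apply to them. Aldh1a3 in D30 organoid 3 was at 8.80 normalized CPM (152 counts), with the next organoid at 2.46. Aldh1a3 in D22 organoid 2 was at 2.58 (37 counts), with the next at 0.338. Both organoids had the highest Vax2 and the lowest Tbx5 of their timepoint. Aldh1a2 in D30 organoid 1 was at 1.03 (18 counts), with the next at 0.290. Cyp26c1 in D22 organoid 1 was at 0.0613, which is 1 count where the other 5 organoids had none, a pattern that always exceeds the criterion.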

How the results depend on the processing

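The number of genes called among the 10 was 0 for D22 against D20 under every alternative, and 2 for D25 against D22 under all 7 settings other than leaving out an organoid (2 to 3 without 1 organoid). It was 5 to 6 for D30 against D20, 2 to 3 for D30 against D25 and 4 to 6 over the 4 timepoints. All directions of the 5 genes that fell from D20 to D30 and all of those calls were kept under the alternatives. Of the fold changes for D30 against D20 of the 8 genes, 243 alternative values kept the direction and the side of the threshold, and 5, all of Rarg, moved past the threshold. With the replicate number as a block, 2 genes in place of 3 were called for D30 against D25, since Rara missed the threshold (adjusted p = 0.0104), and the block changed no other call. The numbers do not pair the organoids: the correlation of the deviations of same-numbered organoids was between -0.083 and 0.214, and exceeded 0.1 in at most 1 of 6 pairs per comparison. Rara was lost from the joint test without D30 organoid 1, 2 or 3 (adjusted p of 0.0193, 0.0162 and 0.0154). The cause of these changes was not tested. Depth limits what can be said of Aldh1a2 and Cyp26c1, and without the filter neither passed in any comparison of timepoints.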
